A study of Homo sapiens with 3 samples.

Results

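Glycosaminoglycans are long sugar chains, most of which are sulfated and attached to proteoglycan core proteins. This account describes exon use in 5 genes that make, edit or carry such chains. SULF1 and SULF2 encode secreted heparan sulfate sulfatases, NDST1 and CANT1 act in chain synthesis, and HSPG2 encodes the core protein perlecan. The 5 genes were chosen by gene symbol, with earlier results of these data known, from 2 deposited tables of exon-skipping events. They gave 59 of 42518 events in the RS3 table and 59 of 40702 events in the RS2 table. Over both tables these were 47 of 39434 skipped exons, and 42 of the 47 were listed in both.

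The cells were BJ fibroblasts, a human fibroblast line, 8 days after induced viral expression of OSKM (the factors OCT4, SOX2, KLF4 and MYC), which all groups carried. Per the labels, the groups received SMAD3 siRNA, SFRS11 siRNA (SFRS11 is an older name of the splicing factor gene SRSF11) or non-targeting siRNA, with 1 RNA-seq library each and no replicates. Each table compares 1 library, coded RS3 or RS2, with a comparator library that both tables share, and no label ties these codes to a siRNA. The library codes are used throughout, and no value here is a statement about either knockdown. In bulk RNA, fewer cells of a type and less RNA per cell cannot be told apart, and neither can a change of splicing within cells from a change in which cells contribute.

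Heparan sulfate chains are started on a core protein, extended, and then modified in the Golgi apparatus, where NDST enzymes replace acetyl groups with sulfate and so set up the later sulfation steps. After secretion, the SULF enzymes remove selected sulfate groups at the cell surface, which changes how chains bind growth factors such as FGFs, Wnts and BMPs. CANT1 is a calcium-activated nucleotidase that hydrolyses UDP, a by-product of sugar transfer in the secretory pathway. Perlecan is a large basement membrane proteoglycan that also surrounds fibroblasts and cartilage cells. Splicing can alter such proteins by removing a coding exon, or change only the leader of the messenger RNA by removing an exon of the 5′ untranslated region (5′ UTR).

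Every difference below is a difference in inclusion level, the share of transcripts over a region that keep the exon, as RS3 or RS2 minus the comparator library. It can lie between -1 and 1, and a positive value means higher inclusion than in the comparator. An event was called at a deposited FDR, an adjusted p-value, under 0.05 together with a difference of 0.1 or more in size. Each deposited p-value sets 1 library against another and not conditions, and the depth behind each value is unknown. Of 13 fibroblast marker genes, 12 had a row in each table, and LUM, lumican, had none. Of 8 pluripotency markers 4 had a row in the RS3 table and 2 in the RS2 table, and of 8 epithelial markers 3 and 2 had one. A row shows that an exon was tabulated, not how much RNA was present.

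To place each exon in its transcript, the exons were matched to GENCODE release 29 by their lengths and the distances between them. All 47 exons found a counterpart, and 0 overlapped another annotated gene on either strand. Of the 47, 37 were coding in at least 1 transcript, 6 lay in the 5′ UTR of protein-coding transcripts, and 4 occurred in noncoding transcripts only. The coding exons were 8 of SULF1, 9 of SULF2, 6 of NDST1 and 14 of HSPG2, while CANT1 had 4 UTR exons, 1 noncoding exon and 0 coding exons.

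A pair of coding exons is shown as sequence. The first, at chr20:46291814-46291956 (hg19, minus strand), is exon 17 of 21 in transcript SULF2-201. It is shown because it corresponds in order and in length, 143 bases, to the SULF1 exon with the largest difference of all member events. The second, at chr5:149927780-149927950 (hg19, plus strand), is exon 12 of 15 in transcript NDST1-201. It is shown because it had the smallest p-value of the 59 RS2 events. Both sequences are from the GENCODE transcripts, 5′ to 3′ on the transcribed strand, and capitals mark the 3 bases at each end, which border the splice junctions.
SULF2 exon 17: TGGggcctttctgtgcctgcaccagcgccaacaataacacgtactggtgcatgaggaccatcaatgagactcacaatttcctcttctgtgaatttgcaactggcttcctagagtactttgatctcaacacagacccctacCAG
NDST1 exon 12: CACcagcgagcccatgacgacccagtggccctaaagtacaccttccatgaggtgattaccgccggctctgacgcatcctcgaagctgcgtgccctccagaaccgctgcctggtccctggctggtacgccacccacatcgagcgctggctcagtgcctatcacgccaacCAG

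Across the 5 genes, 2 of 59 events were called in RS3, against 0.967% of all RS3 events. They were 1 with lower inclusion, in SULF1, where 0.736% of all RS3 events were called lower, and 1 with higher inclusion, in CANT1, where 0.23% were called higher. In RS2, 0 of 59 were called, against 0.0712% of all RS2 events. Since the genes were chosen with such calls in view, nothing is read from these counts. At an unadjusted p under 0.05 there were 4 member events in RS3, against 7.61% of all events, and 1 in RS2, against 4.52%. The median difference of the member events was 0.001 in RS3 and 0.001 in RS2 per the authors' deposited table, where it was -0.001 and 0 over all events. Differences of at most 0.01 in size made up 66.1% of the member events in RS3, against 37.5% of all RS3 events, and 74.6% in RS2, against 39.5%. Inclusion levels were not examined and the depth is unknown, so these shares are not a measure of stable splicing. The large values came from a few exons, and CANT1 supplied 7 of the 9 RS3 events and 3 of the 5 RS2 events with a difference of at least 0.1.

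**Figure D1:**
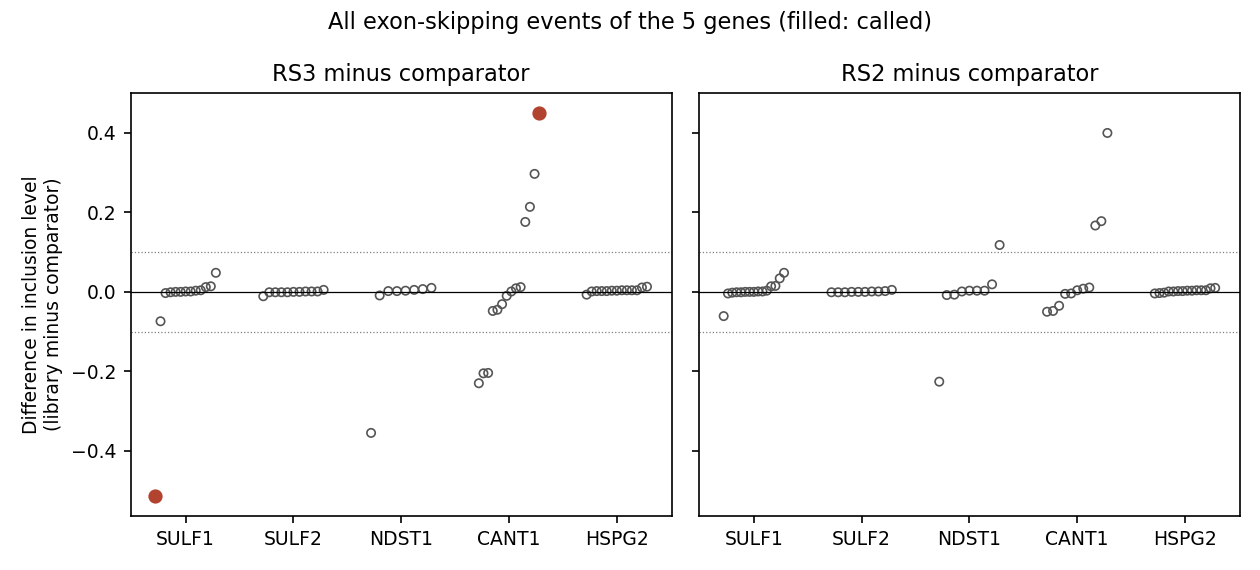
Difference in inclusion level of every exon-skipping event of the 5 genes, in RS3 (left) and RS2 (right) minus the comparator library; each point is 1 event, filled points are called events, and dotted lines mark differences of 0.1 in either direction. The called SULF1 event lies at -0.515 and the called CANT1 event at 0.451, both in RS3, while all SULF2 and HSPG2 points lie close to 0.

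The called SULF1 event was that of 1 coding exon. SULF1 (ENSG00000137573) is on chromosome 8, plus strand, and the exon runs from 70550737 to 70550879 in hg19, 143 bases. It is exon 20 of 23 in transcript SULF1-201 and is fully coding. Inclusion fell by 0.515 in RS3 per the authors' deposited table, with a p-value and an FDR both listed as 0. The same exon differed by 0.015 in RS2 per the authors' deposited table, with a p-value of 0.311 and an FDR of 1. The exon has a single row in each table, so both values describe the same exon without a choice of row. By size it was number 12 of the 313 called RS3 events with lower inclusion.

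The rest of SULF1 differed little in either table. The other 7 coding exons lay between -0.004 and 0.004 over RS3 and RS2 per the authors' deposited table, each with a p-value of 1. They include the exon nearest to this exon among those listed, the 34-base exon 22, which differed by 0.004 in RS3 and -0.002 in RS2 per the authors' deposited table. Among the listed coding exons the low value in RS3 was that of exon 20 alone. The exons directly next to exon 20 had no row, so they could not be compared. Upstream, the nearest exon listed in RS3 was exon 14. Coding exons 7 and 15 were listed in the RS2 table alone.

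The SULF1 leader exons differed more than most of its coding exons, but were not called. The 162-base exon 2, in the 5′ UTR, had rows of 0.012 and 0.048 in RS3 and rows of 0.034 and 0.048 in RS2 per the authors' deposited table, at FDRs of 1. The 95-base exon 3, also in the 5′ UTR, differed by 0.014 in RS3 and by 0.014 in RS2 per the authors' deposited table. A 132-base exon known from a noncoding transcript, further upstream, differed by -0.074 in RS3 and -0.061 in RS2 per the authors' deposited table. A 175-base exon of another noncoding SULF1 transcript was listed with a difference of 0 in both tables, per the authors' deposited table.

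SULF2, the second sulfatase, had no event of comparable size. SULF2 (ENSG00000196562) is on chromosome 20, minus strand, and 9 of the 21 exons of transcript SULF2-201 were listed, all coding at least in part. Differences lay between -0.011 and 0.005 in RS3 and between -0.001 and 0.005 in RS2 per the authors' deposited table. The outermost RS3 value was that of the 143-base exon 17 shown above, at -0.011 with a p-value of 0.011 and an FDR of 0.297 per the authors' deposited table. In RS2 it differed by 0.005 per the authors' deposited table, at an FDR of 1.

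The 2 sulfatase genes share much of their exon layout, so their exons can be set side by side. Reading both coding sequences in order, 13 exons of SULF1-201 have a counterpart of the same length in SULF2-201, with 60.8% to 85.3% identical bases. The 143-base pair, SULF1 exon 20 and SULF2 exon 17, has 78.3% identical bases, and 1 of the 13 pairs, that of 34 bases, is more alike. The difference of this pair in RS3 per the authors' deposited table was -0.515 in SULF1 and -0.011 in SULF2. The 240-base pair, SULF1 exon 6 and SULF2 exon 3, differed by 0 in SULF1 and by 0.005 in SULF2 in RS3 per the authors' deposited table. The 152-base pair could be set side by side in RS2 alone, with -0.004 in SULF1 exon 7 and -0.001 in SULF2 exon 4 per the authors' deposited table. No test of SULF1 against SULF2 was made, since read counts were not used.

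The length of 143 bases is not a multiple of 3, so a transcript without either exon changes its reading frame. In SULF1-201, leaving out exon 20 puts the next stop codon 28 codons past the new junction and 72 bases before the last exon junction, where the full transcript reads 871 codons to its stop. In SULF2-201, leaving out exon 17 puts it 31 codons past the junction and 117 bases before the last exon junction, where the full transcript reads 870 codons. These are properties of the annotated sequences, not measurements of protein. Of the 35 fully coding member exons, 13 could be left out with the original stop kept and 22 could not.

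**Figure D2:**
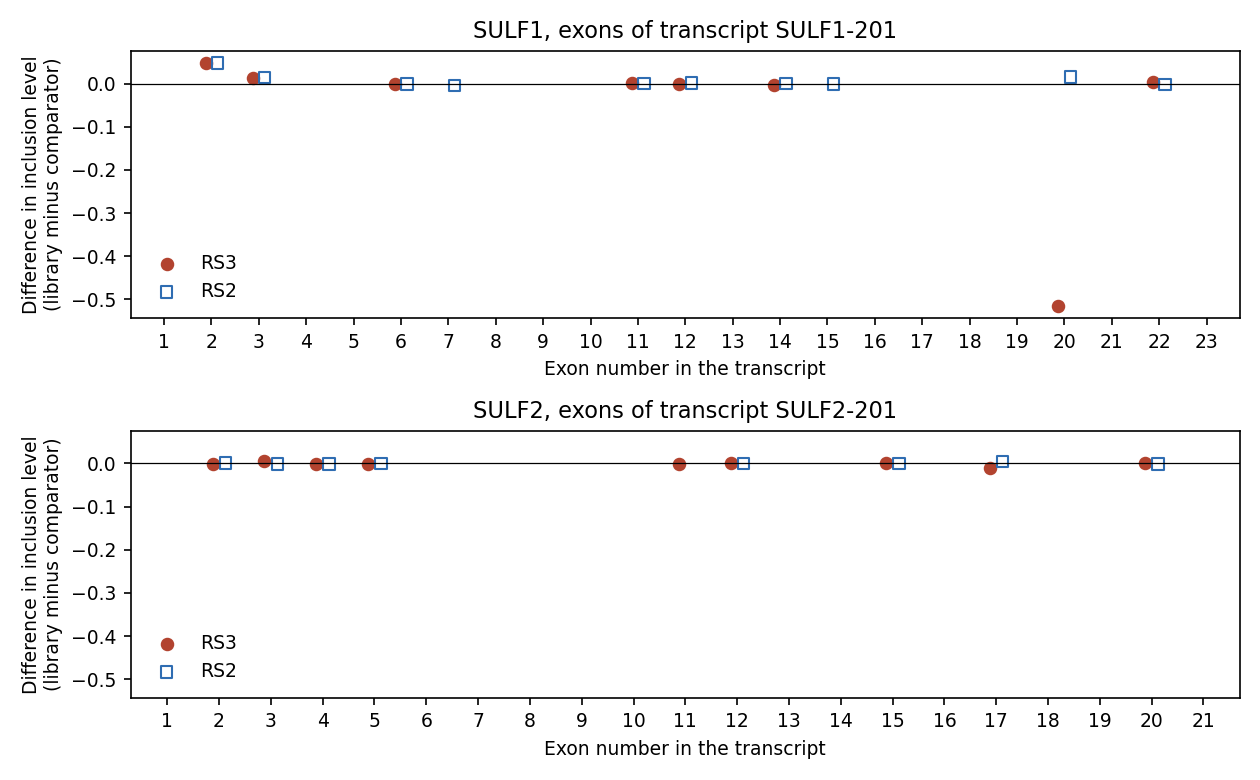
Difference in inclusion level by exon number for SULF1 (top) and SULF2 (bottom), with RS3 as filled circles and RS2 as open squares, each minus the comparator library; where an exon has several rows, the row with the smallest p-value is drawn, and exons without a row are not drawn. Exon 20 of SULF1 lies at -0.515 in RS3 and 0.015 in RS2, while its SULF2 counterpart, exon 17, lies at -0.011 and 0.005.

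NDST1, the enzyme that begins heparan sulfate modification, had no called event. NDST1 (ENSG00000070614) is on chromosome 5, plus strand, with 8 events in RS3 and 9 in RS2. Its coding exons lay between -0.009 and 0.01 in RS3 and between -0.008 and 0.118 in RS2 per the authors' deposited table. The value of 0.118 belonged to 1 of 2 rows of the 175-base exon 11, with a p-value of 0.838, and the other row was at -0.007 per the authors' deposited table. The 171-base exon 12 shown above had rows of 0.019 and 0.003 in RS2 per the authors' deposited table, the first with a p-value of 0.0219 and an FDR of 0.941. In RS3 its rows were 0.005 and 0.002 per the authors' deposited table. Leaving out this exon keeps the frame and the original stop, with 825 codons in place of 882.

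The largest NDST1 values were those of an upstream exon. A 122-base exon from 149898360 to 149898481, known from a noncoding NDST1 transcript, differed by -0.355 in RS3 and -0.226 in RS2 per the authors' deposited table. The p-values were 0.215 and 0.447, and both FDRs were 1. Neither event was called. The 900-base exon 2, which holds the start of the coding sequence, was listed in the RS2 table alone and differed by -0.008 per the authors' deposited table.

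CANT1 had the most events past 0.1 of the 5 genes, and all of its listed exons lie upstream of its coding sequence. CANT1 (ENSG00000171302) is on chromosome 17, minus strand, and 5 exons were listed, in 14 events in RS3 and 11 in RS2. The called event was that of a 139-base 5′ UTR exon from 76994230 to 76994368, which is in 3 annotated transcripts. Inclusion rose by 0.451 in RS3 per the authors' deposited table, at an FDR of 0.0342, and by size this was number 3 of the 98 called RS3 events with higher inclusion. This exon has 3 RS3 rows, and the others were 0.176 at an FDR of 1 and 0.012 at an FDR of 0.85 per the authors' deposited table. Its 2 RS2 rows were 0.178 with a p-value of 0.0538 and 0.008 with a p-value of 0.304 per the authors' deposited table. All 5 rows are above 0, but rows of 1 exon are not separate observations, and both tables share the comparator library. The tables list no flanking exons, so no row can be paired with one of the other table.

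The next listed exon upstream had RS3 values of the opposite sign. The 171-base 5′ UTR exon from 76996182 to 76996352 had 4 RS3 rows, at -0.031, -0.23, -0.205 and -0.204 per the authors' deposited table. The row at -0.031 had an FDR of 0.0183 but was under the minimum difference, and the 3 larger ones had FDRs of 0.83, 0.966 and 1, so none of the 4 was called. In RS2 the 3 rows of this exon were 0.004, -0.004 and 0.167 per the authors' deposited table, at FDRs of 1. Within RS3 the rows of the 171-base exon all lie below 0 and those of the 139-base exon all lie above 0. Here too, rows of 1 exon are not separate observations. Whether the 2 exons replace each other in single transcripts was not tested. In GENCODE, transcript CANT1-203 holds both, as exons 2 and 3 of 5.

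The remaining CANT1 exons gave scattered values that were not called. The 110-base 5′ UTR exon from 77001454 to 77001563 had RS3 rows of 0.214, 0.009, 0.001 and 0.297 per the authors' deposited table. Its RS2 rows were -0.005, -0.035 and 0.4 per the authors' deposited table, and the row of 0.4 had a p-value of 0.393. The most upstream exon, of 109 bases and known from a noncoding transcript, had rows of -0.045 and -0.048 in RS3 and of -0.05 and -0.048 in RS2 per the authors' deposited table. The most downstream one, the 124-base 5′ UTR exon, was at -0.01 in RS3 and 0.011 in RS2 per the authors' deposited table.

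**Figure D3:**
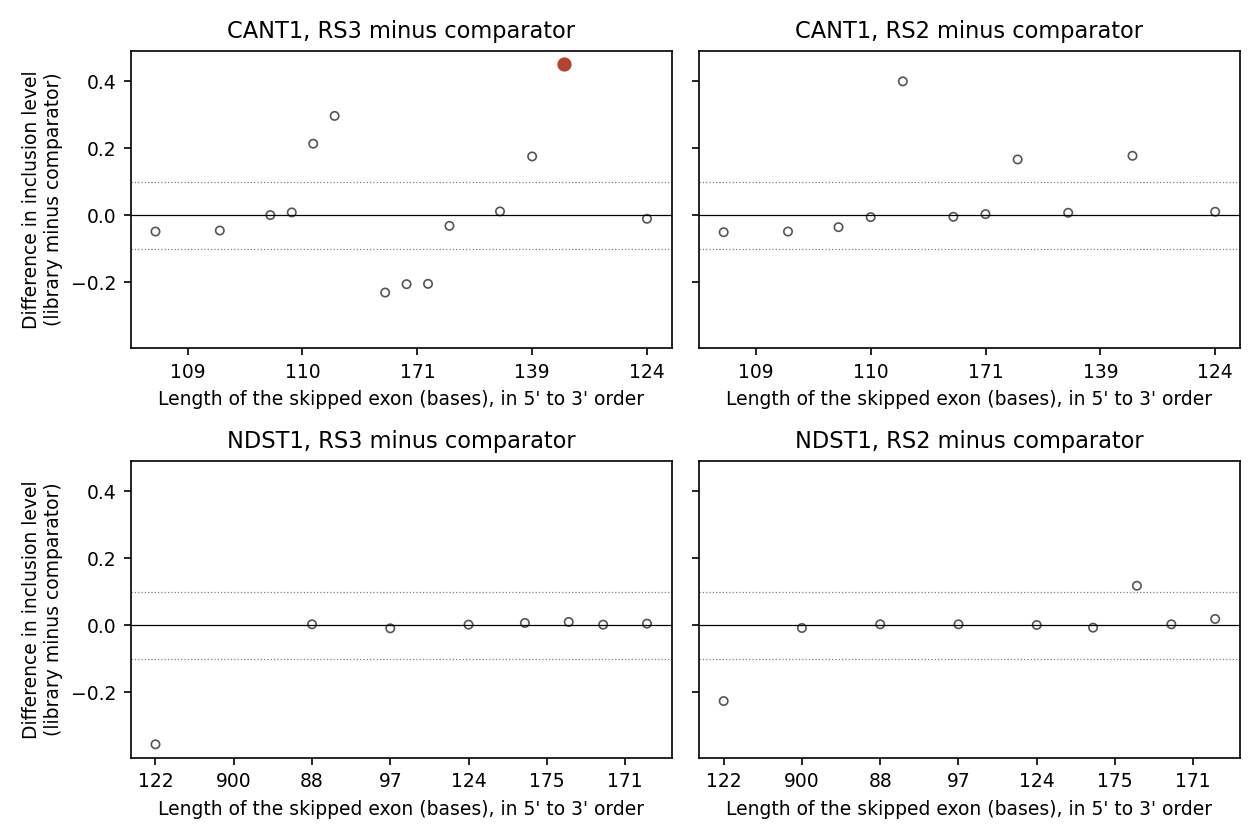
Difference in inclusion level of every row of the CANT1 (top) and NDST1 (bottom) exons, in RS3 (left) and RS2 (right) minus the comparator library; exons are named by length and run from 5′ to 3′, each point is 1 row, the filled point is the called event, and dotted lines mark differences of 0.1. In RS3 the 171-base CANT1 exon has 4 rows below 0 and the 139-base exon 3 rows above 0, and the 122-base NDST1 exon lies at -0.355 in RS3 and -0.226 in RS2.

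HSPG2, the perlecan gene, had small differences at every listed exon. HSPG2 (ENSG00000142798) is on chromosome 1, minus strand, and transcript HSPG2-203 has 97 exons, of which 14 were listed, all coding. All 14 had 1 row in the RS2 table, and 13 had 1 row in the RS3 table, where exon 41 was not listed. They reach from exon 5 to exon 90, with none between exon 5 and exon 33. Differences lay between -0.007 and 0.013 in RS3 and between -0.004 and 0.01 in RS2 per the authors' deposited table. The largest was that of the 136-base exon 54, at 0.013 in RS3 with a p-value of 0.559 and 0.01 in RS2 with a p-value of 0.553 per the authors' deposited table. Of the 13 RS3 events 11 had a p-value of 1, and of the 14 RS2 events 12 had one. No perlecan exon passed the threshold in either table, and the unknown depth sets how small a difference could have been seen.

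By annotation, 89.7% of the coding events in RS3 and 92.9% in RS2 differed by at most 0.01, against 20% and 33.3% of the 5′ UTR events. With every coding event kept, the RS3 range was -0.515 to 0.013 per the authors' deposited table. SULF1 exon 20, the largest value of all member events, was then set aside from the coding events because of its value. Of the 38 RS3 events in coding exons other than SULF1 exon 20, 35 differed by at most 0.01, and the range was -0.011 to 0.013 per the authors' deposited table. Of the 41 such RS2 events, 39 differed by at most 0.01, and the range was -0.008 to 0.118 per the authors' deposited table. Events in 5′ UTR exons ranged from -0.23 to 0.451 in RS3 and from -0.035 to 0.4 in RS2 per the authors' deposited table. Of these events, which are rows of 6 exons in each table, 7 of 15 in RS3 and 3 of 12 in RS2 differed by at least 0.1. Rows of 1 exon are not separate observations. CANT1 held all of the UTR events of that size, while the SULF1 UTR events reached 0.048 at most. CANT1 had no coding exon listed, so for these events annotation and gene cannot be told apart. Exons of noncoding transcripts had 1 of 5 events of that size in each table, the NDST1 exon.

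**Figure D4:**
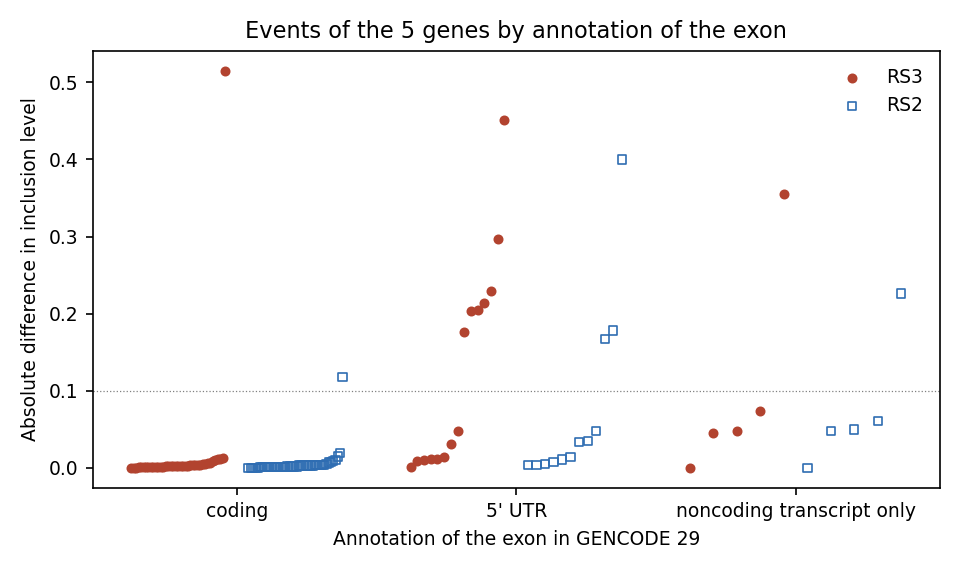
Absolute difference in inclusion level of the member events by the annotation of their exon in GENCODE release 29, with RS3 as filled circles and RS2 as open squares; each point is 1 event, ordered by size within its group, and the dotted line marks 0.1. Coding events lie near 0 except for SULF1 exon 20 in RS3 and 1 NDST1 row of 0.118 in RS2, while the UTR events reach 0.451 in RS3 and 0.4 in RS2.

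The exons with the most similar pair of differences were then named, over 2 comparisons that share 1 library. Among 222 exons of other genes that were called in either table and had a single row in each, those nearest to SULF1 exon 20 were in SKA3, MICAL3 and DPCD. SKA3, a kinetochore protein gene, had a 62-base exon at -0.447 in RS3 and -0.002 in RS2 per the authors' deposited table, a distance of 0.0701. MICAL3, which encodes an actin-oxidising enzyme, had -0.451 and -0.076, and DPCD had -0.594 and -0.067 in RS3 and RS2 per the authors' deposited table. For the 139-base CANT1 exon the rows of the smallest p-value, 0.451 in RS3 and 0.178 in RS2 per the authors' deposited table, were taken, although these rows may not match each other. The medians over its rows, 0.176 and 0.093, are a different point, for which no nearest exons were sought. Nearest to the first point were exons of the kinase gene AKT1, with 0.386 in RS3 and 0.128 in RS2, and of BTN3A2, with 0.353 and 0.042, per the authors' deposited table. An exon of HERC2P9 followed, with 0.313 and 0.082 per the authors' deposited table. The distance is the straight-line distance between the pairs of differences, and it describes 2 values per exon only.

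Other genes of glycosaminoglycan metabolism were read from a list of 122 symbols, of which 66 had events in RS3 and 70 in RS2. In RS3 1 of 66 genes (1.52%) had a called event, 1 lower and 0 higher, against 3.05% of all gene identifiers. In RS2 0 of 70 had one, against 0.238%. An unadjusted p under 0.05 was listed for 17 of the 264 list events in RS3 and 6 of the 269 in RS2, where all events had shares of 7.61% and 4.52%. The median difference of the list was -0.001 in RS3 and 0.001 in RS2 per the authors' deposited table, against -0.001 and 0 over all events. Of the list events, 12.9% in RS3 and 13.8% in RS2 differed by 0.1 or more, against 21.2% and 19.2% of all events.

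The called gene was EXTL3, which encodes a glycosyltransferase that takes part in starting heparan sulfate chains, 1 of 4 listed polymerisation genes. A 94-base EXTL3 exon (chromosome 8, 28570974 to 28571067) fell by 0.144 in RS3 per the authors' deposited table, at an FDR of 0.0344. A second row of this exon was at 0.009 with an FDR of 1 per the authors' deposited table. The RS2 rows of the exon were -0.073 and 0.02 per the authors' deposited table, at FDRs of 1.

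The other lists had 0 called genes in either table. In RS3 these were 5 genes of the linkage region, 5 of heparan sulfate modification and 6 of chondroitin and dermatan sulfate. A further 11 were of precursors and their transport, 6 of hyaluronan, 15 of degradation and 14 of the core protein list. The core protein list also holds HAPLN3, which encodes a link protein and not a core protein. Keratan sulfate genes had no event. AGRN, whose product agrin carries heparan sulfate, had an RS3 event at 0.027 with an FDR of 0.00227 per the authors' deposited table. IDS, a lysosomal sulfatase that degrades heparan and dermatan sulfate, had an RS3 event at -0.054 with an FDR of 0.00701 per the authors' deposited table. Both passed the FDR threshold but not the minimum difference. UGP2, which makes UDP-glucose, had RS3 events at -0.141, -0.315 and 0.044, with FDRs of 0.0739, 0.173 and 0.176 per the authors' deposited table. SUMF2, of the degradation list, had RS3 events at -0.155 and -0.39, with FDRs of 0.171 and 0.196 per the authors' deposited table. The SUMF2 exons of these events, of 54 and 151 bases, overlap and share a boundary. In RS2 they differed by -0.114 and -0.282, at FDRs of 0.964 and 0.977 per the authors' deposited table. None of these was called, and the further RS3 events of both genes had FDRs of 0.196 or more.

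**Figure D5:**
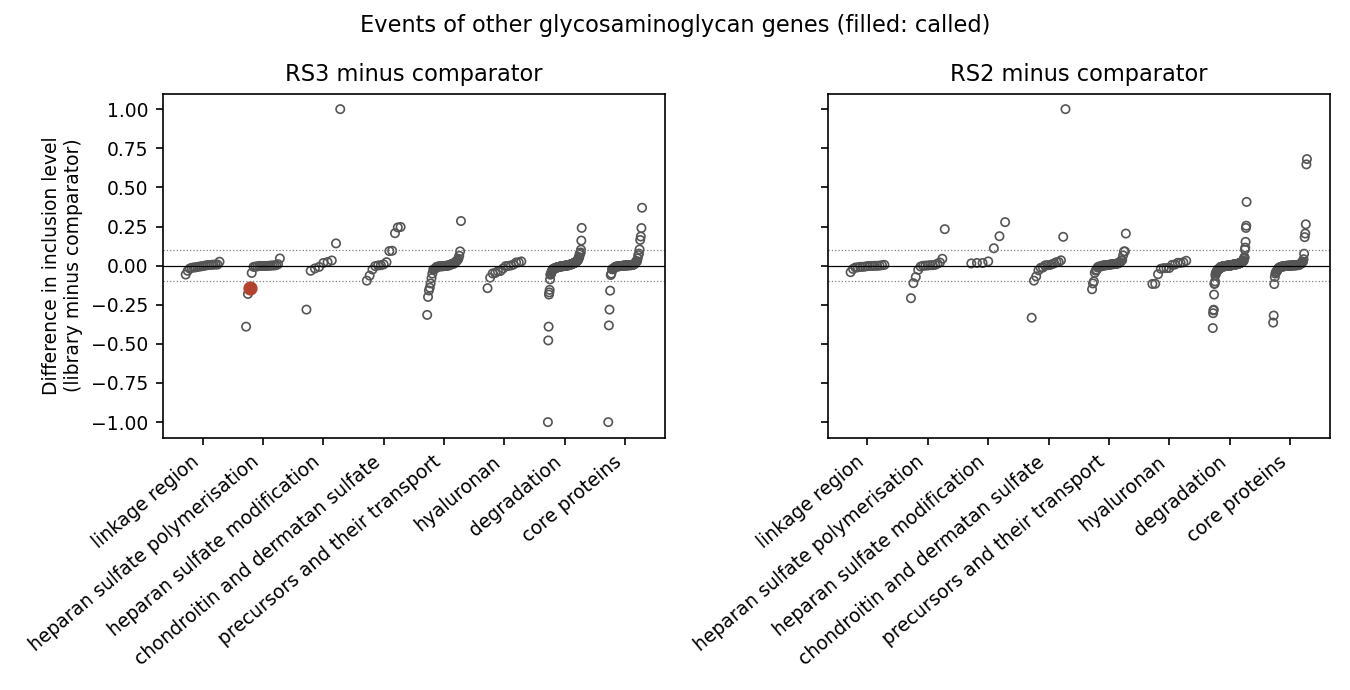
Difference in inclusion level of every event of the other glycosaminoglycan genes by list, in RS3 (left) and RS2 (right) minus the comparator library; each point is 1 event, the filled point is the called event, and dotted lines mark differences of 0.1. The filled point is the EXTL3 event at -0.144 in RS3, and uncalled events reach -1 and 1 in RS3 and 1 in RS2.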

How the data were processed

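Libraries were made with a TruSeq kit from mRNA of Trizol extracts cleared of DNA, per the labels' protocols. The submitters' processing notes name hg19, STAR and FastQC, without versions. Which program found the splicing events was not given in the sources used here. Per the file headers, the authors deposited a p-value and an FDR for each event, and a difference in inclusion level, which is handled here as a deposited score between -1 and 1.

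The sign was settled from the tables: the difference is the first listed level less the second, and the second is that of the library named in both tables. Each table also has 2 columns with inclusion levels of single libraries, 4 in all. Apart from that look at the sign these were not used, because no label ties them to a sample. Tables give the exon without its flanks, and 10 of 43 member exons in RS3 and 10 of 46 in RS2 have several rows. Where 1 value per exon was needed, the row of the smallest p-value was taken.

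GENCODE release 29 is on GRCh38, so it was used for no coordinate. Each gene's exons were matched to it by length and spacing, and 1 common shift placed every listed exon. Sequences come from its transcripts. SULF1 and SULF2 exons were aligned with Biopython 1.88. Tables were handled with pandas 2.3.3. A Benjamini-Hochberg adjustment, tested on simulated data, left every event on its side of the FDR threshold.

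The members, lists and tests were chosen with earlier results of these data known. The text covers all member rows, singly or, for exons with small differences, as a range, and names list genes with a call and the 3 nearest exons of each called member exon. AGRN, IDS, UGP2 and SUMF2 were named after their values were seen. With 1 library per group no test between conditions was possible.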

Additional observations from a re-analysis of the deposited data

Results flagged for a closer look

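The 143-base SULF1 exon lay on opposite sides of the comparator in the 2 tables, at -0.515 in RS3 and at 0.015 in RS2 in the authors' deposited table. The RS2 value had a p-value of 0.311, and the difference between RS3 and RS2 was not tested. The 171-base CANT1 exon did the same over the rows of the smallest p-value, at -0.031 in RS3 and at 0.167 in RS2 in the authors' deposited table. The other RS2 rows of this exon were at 0.004 and -0.004, so the opposite sign rests on the row taken. The exon has 4 rows in RS3 and 3 in RS2, which cannot be paired. The RS2 value of 0.167 had a p-value of 0.305, and its difference from RS3 was not tested either.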

How the results depend on the processing

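The count of called member events in RS2 was 0 under all 7 alternatives. The smallest member FDR in RS2 was 0.941, so none of the settings used could have changed this count. In RS3, 2 member events were called. The SULF1 event was called under all 7 alternatives. Its listed FDR of 0, difference of -0.515 and single row meant that none of the settings used could have dropped it. The count was 1, SULF1 alone, with an FDR under 0.01 and with the median row of each exon. It was 3 with no minimum difference, which added the 171-base CANT1 exon. For the 139-base CANT1 exon the median over its rows was 0.176 in RS3, a row with an FDR of 1, and 0.093 in RS2. The called list genes in RS3, 1 in the report, numbered 0 with an FDR under 0.01 and 0 with a difference of at least 0.2. They numbered 2 with an FDR under 0.1, EXTL3 and UGP2, and 3 with no minimum difference, AGRN, EXTL3 and IDS. In RS2 they numbered 0 throughout, where the smallest FDR of the list events was 0.775, above every FDR threshold used. No paired analysis was possible because each group has 1 library. Leaving out a replicate was not possible for the same reason, and the depth behind the values is unknown.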
